A study of Mus musculus with 45 samples.

Results

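The cortical progenitors known as radial glia make neurons first and glia later, and this account follows 10 genes of that later program in mouse cortical cultures begun on gestational day E11.5, E14.5 or E16.5. They were chosen by name from the 53491 genes listed for each culture, with earlier results of these data known. Counts of these genes set beside the share of all genes are therefore description only. The 3 NFI factors, Nfia, Nfib and Nfix, were set against 7 genes of the glial lineages, namely Olig1, Olig2, Pdgfra, Aldh1l1, Sparcl1, Apoe and Tnc. All 10 had more than 500 covered T positions in all 45 libraries, and all 10 had a usable RNA half-life at all 3 stages, as did 9505 transcripts in all.

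NFI proteins are DNA-binding transcription factors, and radial glia need Nfia and Nfib to start making astrocytes on time, although young cortical neurons use them too. Olig1 and Olig2 are basic helix-loop-helix factors of the oligodendrocyte lineage, and Pdgfra, the alpha receptor for platelet-derived growth factor, is the classic surface marker of oligodendrocyte precursors but is also made by fibroblasts. Aldh1l1 is a folate enzyme used to mark astrocytes, Sparcl1 (hevin) is a secreted matrix protein of astrocytes and neurons, Apoe carries lipids between brain cells, and Tnc (tenascin C) is a matrix glycoprotein around radial glia and immature astrocytes.

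The libraries came from primary cortical cells of WT mouse embryos, dissociated, plated on poly-D-lysine with basic fibroblast growth factor and labelled with 100 uM 4-thiouridine (4sU), an analogue of uridine, for 20 h. An excess of uridine (5 mM) then started the chase, and RNA was taken at 0, 2, 4, 8 and 12 h. In SLAM-seq, alkylated 4sU is read as C in place of T, so the share of covered T positions that read C, the conversion rate, follows labelled RNA. A stage had 3 replicate pools, named A, B and C. A pool combined the cortices of 7 embryos at E11.5 and of 2 embryos later on, and was divided over 5 wells, 1 for each chase time. Unlabelled cells were not used here, so the background conversion rate was not measured. All values describe whole dissociated cultures rather than tissue. Depth ran from 228.7 to 629.1 M covered T positions per library, or 15.9 to 43.9 M reads. In bulk RNA, fewer cells of a type and less RNA per cell cannot be told apart.

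The cultures held neural cells at every stage. Summed levels of 6 radial glia markers lay between 8020 and 8508 CPM (reads of a gene per 1e6 reads of the library) in the 0 h libraries at E11.5, then between 2556 and 3238, and between 1006 and 1106 by E16.5. The sum of 8 neuron markers moved the other way, from 3069 to 3666 at E11.5 to 8408 to 8778 at E16.5. Other cells were also present. Mural and fibroblast markers (8 genes, led by Col3a1 at E11.5) summed to 480 to 731 CPM at E11.5 and to no more than 38.7 CPM at 0 h later. Markers of the ganglionic eminences and interneurons (9 genes) summed to 41.6 to 46.9 CPM in the youngest cultures, to 51.5 to 55.3 in the next and to 274 to 282 in the oldest, where Lhx6 led. Microglia markers (11 genes) never exceeded a sum of 24.5 CPM at 0 h, nor endothelial markers (8 genes) a sum of 6.22. The part of these cells in the results that follow was not tested, except where a value is given.

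The first question was how the level of each gene at 0 h of chase changed with age. From E11.5 to E14.5, Nfib, Nfix, Olig1, Olig2 and Tnc rose and Pdgfra fell, and from E14.5 to E16.5 Nfix, Pdgfra, Aldh1l1 and Sparcl1 rose. A gene was called where edgeR gave an adjusted p below 0.05 and the log2 fold change lay beyond 1 in size. By that rule 6 of 10 genes changed in the first interval, 5 up and 1 down, when 16.1% of 18408 tested genes did (8.14% higher, 8.00% lower). In the second, 4 of 10 rose, when 13.1% of genes were called and 7.19% were higher. From E11.5 to E16.5 the count was 7 of 10, all higher, against 29.3% of genes in either direction and 14.7% higher.

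**Figure D1:**
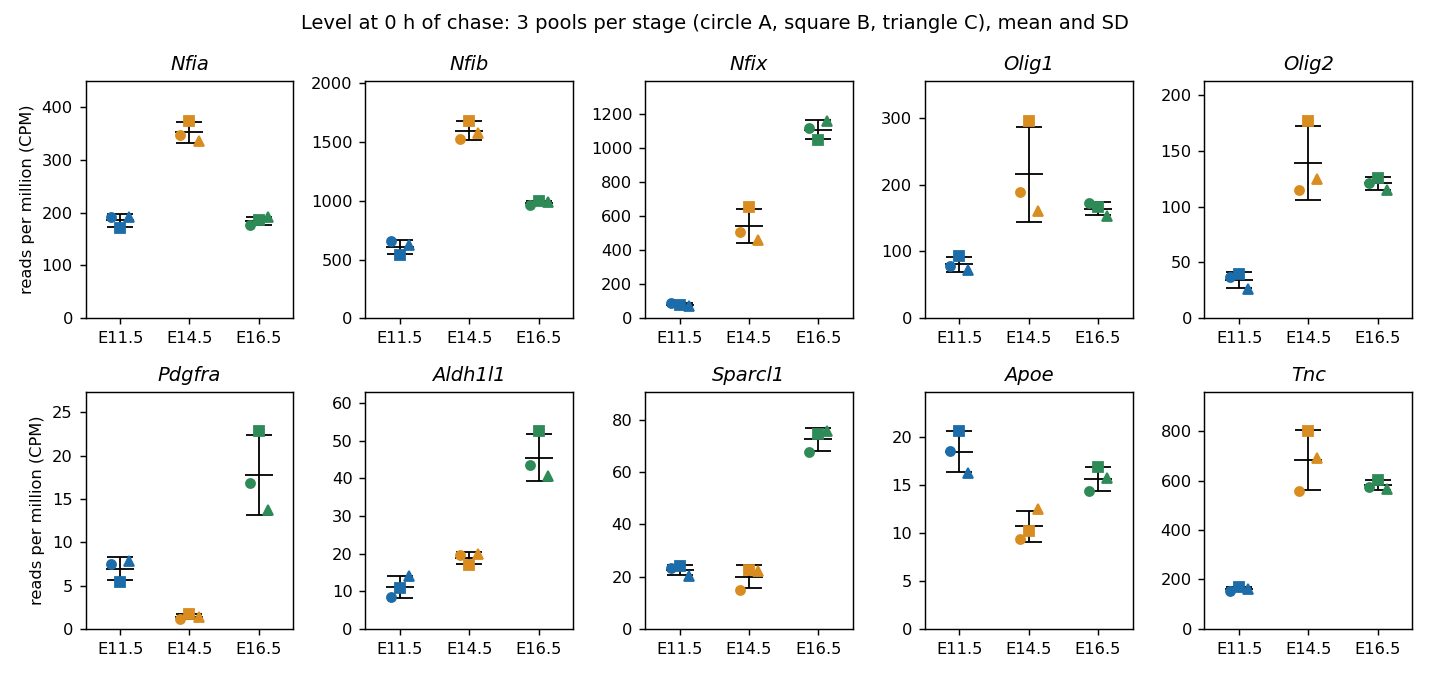
Level of each gene at 0 h of chase in CPM (linear axis from 0, scaled for each gene), by stage. Points are the 3 pools, bars the mean and SD. Nfix climbed at each stage, Nfia and Nfib peaked at E14.5, and Pdgfra was lowest at E14.5, where its 3 pools lay between 1.17 and 1.68.

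The NFI factors did not move as a block. Nfix, a regulator of progenitor differentiation, stood at 89.8, 78.7 and 69.1 CPM in the E11.5 pools, at 509, 654 and 461 in those of E14.5 and at 1115, 1048 and 1161 in the last. The pools of the 3 stages did not overlap. Its log2 fold change was 2.85 ± 0.12 (SE) in the first interval (edgeR, adjusted p = 1.3e-09) and 1.03 ± 0.11 in the second (adjusted p = 8.7e-06). The second value fell just below the fold threshold without E14.5 pool A (0.99) or pool C (0.94). Nfib, which like Nfia is needed for timely gliogenesis, measured 657, 537 and 628 CPM at E11.5, then 1527, 1684 and 1579, then 965, 1002 and 986. It rose by 1.44 ± 0.08 on the log2 scale (adjusted p = 9.8e-09). The later difference of -0.67 ± 0.08 (adjusted p = 1.1e-05) stayed short of the fold threshold, although the pools did not overlap. Nfia, needed for the onset of gliogenesis, read 192, 171 and 192 CPM, then 347, 374 and 335, then 177, 185 and 191. Its differences of 0.98 ± 0.07 and -0.90 ± 0.07 lay just inside the fold threshold, with adjusted p = 1.1e-07 and 4.3e-07, and its E11.5 and E16.5 pools overlapped. Single pools decided the first of these, since leaving out E11.5 pool A or C or E14.5 pool C gave 1.00, 1.01 and 1.03, which were called.

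Per kilobase of exon, the order within the family changed with age. Nfib led at E11.5 with 40.6 CPM per kb against 17 for Nfia and 10.8 for Nfix, and at E14.5 with 107 against 32.3 and 73.6. At E16.5 Nfix led with 151, ahead of Nfib with 65.8 and Nfia with 16.9. The sum of the 3 genes lay between 786 and 939 CPM at first, then between 2375 and 2711, and between 2235 and 2337 at the end.

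Olig1 and Olig2 rose in the first interval and had no called change in the second. Olig1 gave 78, 93.6 and 71.7 CPM, then 189, 296 and 161, then 173, 166 and 153. Olig2, the factor that specifies the lineage, gave 36.7, 39.9 and 26.2, then 115, 177 and 125, then 121, 126 and 115. For both genes the E11.5 pools lay below all later ones, while E14.5 and E16.5 overlapped. The first interval brought log2 fold changes of 1.50 ± 0.18 for Olig1 and 2.12 ± 0.16 for Olig2 (edgeR, adjusted p = 1.4e-05 and 2.2e-07). In the second interval they were -0.40 ± 0.17 and -0.23 ± 0.15, which did not pass the test (adjusted p = 0.0691 and 0.23, with 95% intervals from -0.78 to -0.03 and from -0.56 to 0.10).

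Pdgfra had the largest difference of the 10 between successive stages. It measured 7.47, 5.43 and 7.88 CPM at E11.5, fell to 1.17, 1.68 and 1.42 CPM at E14.5 (51 to 55 reads per library) and rose to 16.8, 22.8 and 13.7 CPM by E16.5. No pools of different stages overlapped. The log2 fold changes were -2.43 ± 0.20 and then 3.80 ± 0.21 (edgeR, adjusted p = 5.9e-07 and 5.8e-08). Fibroblasts also make this receptor, and of the 8 mural and fibroblast markers 7 fell and 1 rose in the first interval. Col3a1 ranged from 242 to 359 CPM at E11.5 and from 1.57 to 2.04 at E14.5. Dcn went the other way, from 2.5 to 2.84 CPM at E11.5 to 7.22 to 8.96 at E14.5. The part of those cells in the E11.5 level was not tested. Between E14.5 and E16.5, 4 of the 8 mural and fibroblast markers rose, and their sum went from 19.1 to 23.4 CPM to 17.9 to 38.7 CPM. In the libraries taken at 12 h of chase, the first contrast shrank to -0.31 and was not called (adjusted p = 0.169), and the second to 1.39.

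The astrocyte and matrix genes followed separate courses. Aldh1l1 went from 8.45, 10.8 and 14.1 CPM to 19.5, 17.0 and 20.0 and then to 43.5, 52.5 and 40.5 CPM, with no overlap between stages. Its first difference of 0.81 ± 0.17 was short of the fold threshold, passing it only without E11.5 pool C (1.05), and the second, 1.29 ± 0.17, was called (adjusted p = 4.9e-05). Sparcl1 overlapped between the first stages, with 23.3, 24.0 and 20.4 CPM and then 15, 22.7 and 22.2 (log2 fold change -0.11 ± 0.14, 95% interval from -0.41 to 0.18). It then reached 67.5, 74.4 and 75.6 CPM (1.89 ± 0.14, adjusted p = 4.2e-07). Apoe measured 18.5, 20.6 and 16.3 CPM, then 9.4, 10.2 and 12.5, then 14.4, 16.9 and 15.7. Neither step was called, the log2 fold changes being -0.70 ± 0.12 and 0.56 ± 0.12. Tnc climbed from 152, 170 and 163 CPM to 560, 800 and 692 (2.14 ± 0.11, adjusted p = 6.6e-09) and stood at 573, 604 and 567 at E16.5 (-0.21 ± 0.10, adjusted p = 0.111).

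Other genes of these lineages moved in both directions. Of 22 tested regulators of the gliogenic switch, 1 rose and 7 fell from E11.5 to E14.5, and 3 rose and 4 fell from E14.5 to E16.5. Zbtb20, a zinc finger repressor that promotes astrocyte formation, rose in both intervals, from a mean of 0.574 to 1.6 and 5.07 CPM (adjusted p = 8.2e-04 and 2.0e-04). Id3 and the Notch target Hes5 had the largest called falls of the first interval (log2 fold changes of -2.73 and -1.98). In the second interval Nr2f2 rose too, from 4.81 to 11.1 CPM, and Sox9, a factor of radial glia and astrocytes, fell from 224 to 85.8 CPM and Erbb2 from 21 to 8.47. Among 17 tested astrocyte lineage genes, 4 rose and 4 fell in the first interval, led by Gfap (0.196 to 1.09 CPM) and Clu (7.77 to 27.5) on one side and Hopx (293 to 48.9) and Gja1 (237 to 88.2) on the other. In the second, 2 rose and 6 fell, with Hepacam at 0.643 and then 4.8 CPM, Slc4a4 at 12 and then 37.6, Aldoc at 583 and then 103, and Fgfr3 at 125 and then 29.7. Several of those that fell are also radial glia genes.

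Of 16 tested oligodendrocyte lineage genes, 3 rose and 4 fell in the first interval and 6 rose and 1 fell in the second. Egfr, a receptor of late progenitors, rose from 2.93 to 30 CPM, and Matn4 from 2.75 to 6.85, while Lhfpl3 went from 5.15 to 1.6 and Sox10 from 0.27 to 0.0771 CPM. In the second interval Gpr17, of immature oligodendrocytes, rose from 0.101 to 4.51 CPM and Sox10, which drives their maturation, from 0.0771 to 2.68 CPM (edgeR, adjusted p = 8.5e-07 and 3.9e-06), so that both started from a handful of reads. Matn4 was the one called lower (-2.15). The median change over the list was -0.17 and then 0.37, beside -0.01 and 0.00 over all genes tested.

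The next question was how much of each transcript had been labelled after 20 h. At E11.5 and E14.5 the mean rates of the 10 genes were spread from percentile 11.9 of all measured genes (Aldh1l1 at E14.5) to 92.2 (Apoe at E11.5). At E16.5 they parted: the 3 NFI factors and Sparcl1 stood near the median gene, at percentiles 41.7 to 53.1, and Olig1, Olig2, Pdgfra, Aldh1l1, Apoe and Tnc at 5.13 or lower. The comparison used the log2 conversion rate minus the median over 12522 genes in the same library, tested with limma. From E11.5 to E14.5 none of the 10 was called in limma, though 3 had an unadjusted p below 0.05, when 0.152% of genes were called. From E14.5 to E16.5, 6 of 10 were called, all lower, when 17.0% of genes were called and 11.3% were lower. From E11.5 to E16.5 these 6 were lower, when 17.0% of genes were called and 10.3% were lower, although the calls for Pdgfra and Apoe were lost without single pools in both comparisons.

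**Figure D2:**
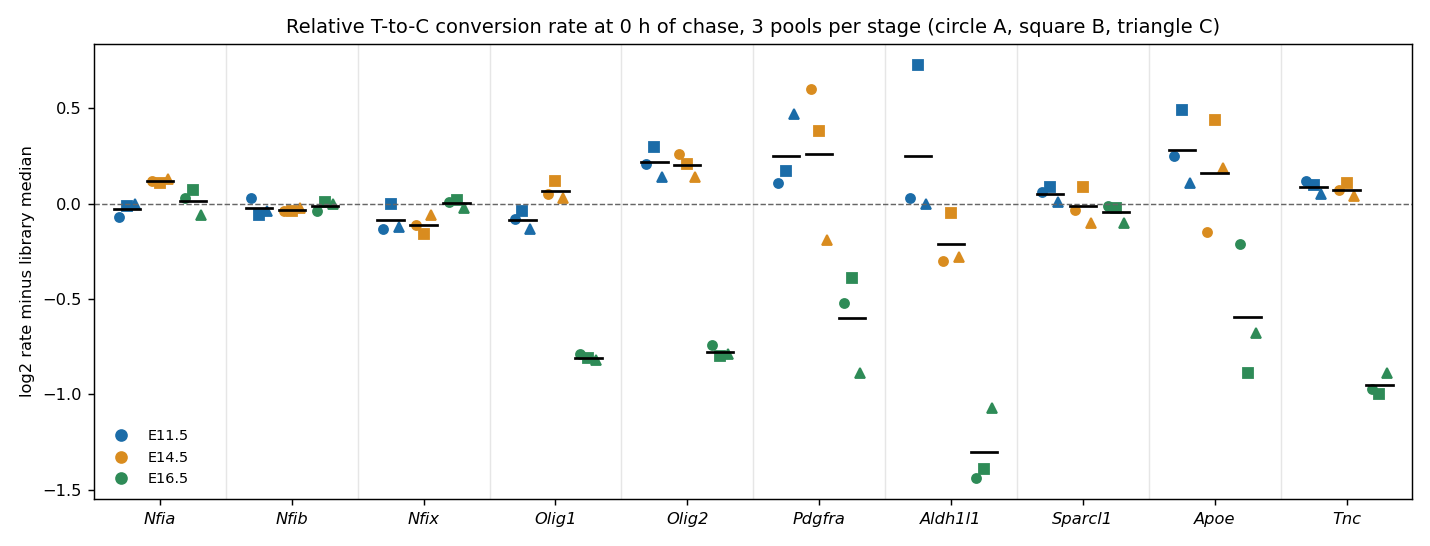
Relative T-to-C conversion rate at 0 h of chase (log2 rate minus the median gene of the library, dashed line at 0) for each gene, with 3 pools per stage as points and their mean as a bar. At E16.5 the NFI factors and Sparcl1 lie between -0.10 and 0.07, and Olig1, Olig2, Aldh1l1 and Tnc lie at or below -0.74.

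The raw rates show what the centring did. The rate of the median gene was 1.10%, 1.02% and 1.45% in the E11.5 pools, then 1.12%, 1.21% and 1.04%, then 1.78%, 1.88% and 1.86%. Nfix, at 1.04%, 1.09% and 0.999% at E14.5, went to 1.79%, 1.90% and 1.84% at E16.5, and Nfia and Nfib likewise reached 1.73% to 1.97%. Olig2 went from 1.35%, 1.40% and 1.15% to 1.06%, 1.08% and 1.08%, and Olig1 from 1.16%, 1.32% and 1.06% to 1.03%, 1.07% and 1.05%. Tnc went from 1.17%, 1.31% and 1.07% to 0.909%, 0.938% and 1.00%. Aldh1l1 had the lowest rates, 0.655%, 0.719% and 0.890% at E16.5. At E16.5 the raw rates of Olig2 and Tnc lay below all E14.5 pools, and those of Olig1, Pdgfra, Aldh1l1 and Apoe overlapped with them, while the median gene had a higher rate.

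The relative differences from E14.5 to E16.5 were -0.87 ± 0.05 for Olig1, -0.98 ± 0.06 for Olig2, -1.03 ± 0.05 for Tnc and -1.09 ± 0.20 for Aldh1l1 (limma, adjusted p = 1.0e-04, 1.1e-04, 7.8e-05 and 0.00891). They were -0.87 ± 0.22 for Pdgfra and -0.76 ± 0.21 for Apoe (adjusted p = 0.0299 and 0.0409). The pools of Pdgfra and Apoe scattered widely. The call for Pdgfra was lost in 5 of the 6 fits that left out 1 pool (all but that without E14.5 pool C, adjusted p from 0.0512 to 0.0963), and that for Apoe in 4 of 6 (all but those without E14.5 pool A or E16.5 pool A, 0.0963 to 0.13). From E11.5 to E16.5, where Pdgfra differed by -0.85 and Apoe by -0.88 (adjusted p = 0.0317 and 0.0233), the call for Pdgfra was lost in all 6 such fits (0.0524 to 0.0998) and that for Apoe in 4 of 6, namely without E11.5 pool A or B or E16.5 pool B or C (0.0564 to 0.0784). The NFI factors differed by -0.11 ± 0.05 (Nfia), 0.02 ± 0.05 (Nfib) and 0.11 ± 0.06 (Nfix), with 95% intervals inside -0.23 to 0.24, and Sparcl1 by -0.03 ± 0.06. Without centring, the verdicts changed places. Nfia, Nfib, Nfix and Sparcl1 were then higher at E16.5, by 0.61, 0.74, 0.82 and 0.68 on the log2 scale (adjusted p = 0.00492, 0.00145, 7.5e-04 and 0.00243), and none of the 6 others was called, with values from -0.38 (Aldh1l1) to -0.04 (Apoe). Of all called genes 99.1% were then higher, against 33.6% with centring. The gap between the 2 sets of genes did not depend on the centring, which shifts all genes of a library alike.

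Marker lists of cell types also differed in relative rate at E16.5. All 6 radial glia markers had lower relative rates than at E14.5, the list's median in each pool lying between -0.75 and -0.66, whereas 5 of 8 neuron markers had higher ones, with list medians between 0.07 and 0.13. For ganglionic eminence and interneuron markers, 3 of which could be measured, the medians lay between -0.55 and -0.44. Both measured microglia markers were lower (medians from -0.46 to -0.24), and of 5 measured mural and fibroblast markers 1 was higher and 2 were lower (medians from 0.18 to 0.40). Of the wider lists, 11 of 14 measured astrocyte lineage genes, 4 of 11 oligodendrocyte lineage genes and 9 of 20 switch regulators were lower, with median differences of -0.74, -0.46 and -0.20 beside 0.00 over all genes tested. The part of cell composition in the rates of the 10 genes was not tested.

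The study asked foremost how long such transcripts last. A half-life was obtained from the exponential loss of the conversion rate over the chase. Olig2 had the shortest half-lives of the 10 genes at every stage, at most 2.16 h in all 9 pools, and Aldh1l1, Sparcl1 and Apoe had the longest. The NFI factors lay close together between them.

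Short sequence elements in the 3′ untranslated region (UTR) are known to mark messages for quick decay, among them AU-rich elements and the sites of Pumilio proteins, and the matches in the 10 genes to the longer AU-rich motif and to the Pumilio motif are shown here, in short-lived and long-lived members alike, to be read beside the half-lives. ATTTA, the longer TATTTAT, which contains it, and the Pumilio motif TGTANATA (N stands for any base) were searched on the sense strand of GENCODE transcripts, with overlapping matches counted. Capitals mark the motif, and the coordinates refer to GRCm38 (mm10).
Olig2, AU-rich (chr16:91228596-91228616, plus strand): taaataaTATTTATtacttgt
Olig2, Pumilio (chr16:91228305-91228326, plus strand): ttgtgtgTGTAAATAtaatatc
Pdgfra, Pumilio (chr5:75195444-75195465, plus strand): gtaattaTGTAAATAactctta
Pdgfra, Pumilio (chr5:75197856-75197877, plus strand): atcgataTGTATATAtctgttg
Nfia, Pumilio (chr4:98114421-98114442, plus strand): aattggtTGTATATAcaataaa
Nfib, AU-rich (chr4:82295636-82295656, minus strand): gtcagatTATTTATttaaaat
Nfib, Pumilio (chr4:82292869-82292890, minus strand): aggagacTGTACATAaagacat
Nfib, Pumilio (chr4:82290926-82290947, minus strand): gttcagtTGTAAATAtgtttca
Nfix, AU-rich (chr8:84707098-84707118, minus strand): tgggcttTATTTATtgagaat
Aldh1l1, AU-rich (chr6:90600184-90600203, plus strand): taaaaaaTATTTATtttatt
Olig2, with a 3′ UTR of 1306 nt, was 1 of 2 members to hold both TATTTAT and TGTANATA, the other being Nfib with its 6509 nt. The share of all transcripts that hold both was not counted, so this number cannot be judged. Sparcl1, Apoe and Tnc, whose 3′ UTRs measure 438, 271 and 648 nt, held none of the 3 motifs. Aldh1l1, whose half-lives were long, held 1 TATTTAT. Among 8812 transcripts with a half-life at all stages the median 3′ UTR measured 1207 nt, and 72.3% held ATTTA, 32% TATTTAT and 29.4% TGTANATA. A match is a description of these letters only.

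The half-lives of Olig2 were 1.80, 1.98 and 1.46 h, then 1.89, 1.96 and 2.07 h, then 2.00, 2.16 and 2.14 h. Among all transcripts with a half-life it stood at percentile 0.286, 0.917 and 11.0 in turn. The median transcript had a half-life of 4.43 h over 10858 transcripts at the first stage, 4.60 h over 10686 at the second and 3.48 h over 11850 at the third. The SD of a transcript over the 3 pools had a median of 0.719, 0.54 and 0.294 h in turn. In hours, the pools of Olig2 overlapped between successive stages, while the median transcript had a shorter half-life at E16.5.

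Nfia gave 3.67, 2.98 and 2.94 h, then 3.63, 3.68 and 3.74 h, then 3.13, 3.04 and 3.32 h. Nfib gave 3.52, 4.07 and 3.35 h, then 4.14, 4.18 and 4.41 h, then 3.14, 3.02 and 3.26 h. Nfix, the most stable of the family at each stage, gave 4.55, 4.53 and 3.77 h, then 4.87, 4.84 and 5.10 h, then 4.10, 4.33 and 4.23 h. For all 3 NFI genes the E16.5 pools lay below the E14.5 pools, and the median transcript was lower too. The share of all transcripts whose pools parted in this way was not counted. In hours, 3607 of the 3620 transcripts called between these stages were lower, so a fall was common. Olig1 gave 3.90, 4.21 and 3.30 h, then 3.32, 3.31 and 3.50 h, then 3.38, 3.25 and 3.58 h, with stages that overlapped. Tnc alone lay above its E14.5 pools at E16.5, with 4.72, 4.90 and 5.27 h and then 5.98, 5.98 and 5.70 h.

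**Figure D3:**
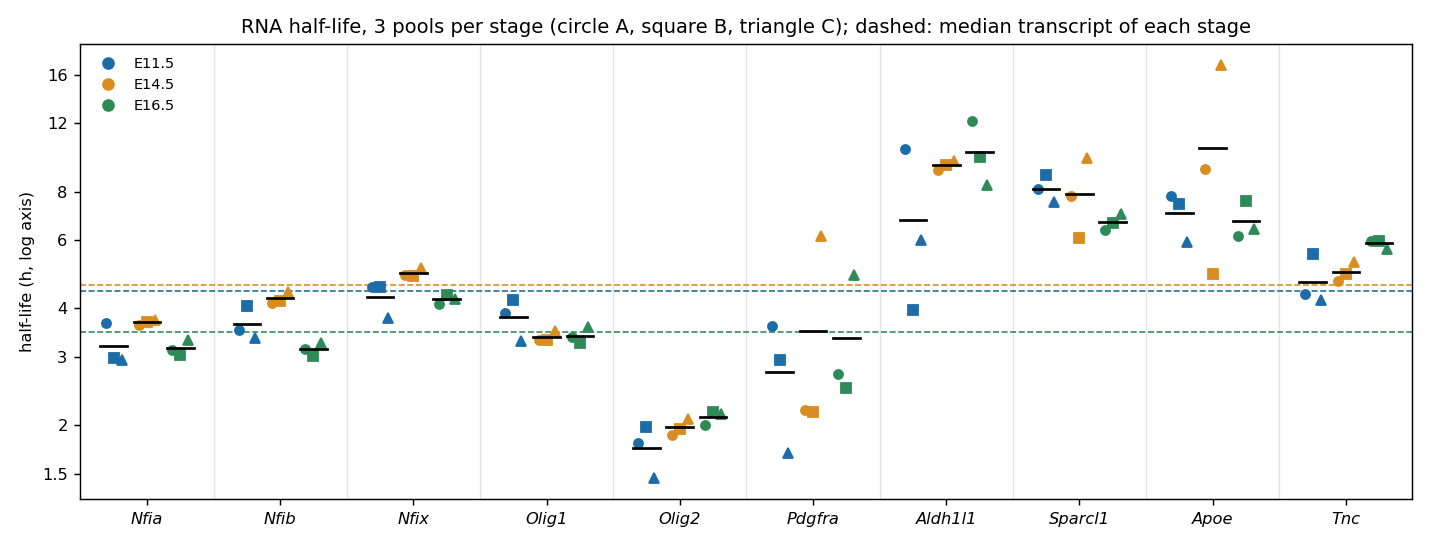
RNA half-life in hours (log axis) of each gene, with 3 pools per stage as points and their mean as a bar, and the median transcript of each stage as a dashed line. Olig2 lies lowest at every stage, Aldh1l1, Sparcl1 and Apoe lie highest, and Pdgfra and Apoe have the widest scatter between pools.

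The remaining genes were measured less precisely. Aldh1l1 ranged from 3.96 to 10.3 h, then from 9.10 to 9.61 h, then from 8.31 to 12.2 h. Sparcl1 gave 8.15 ± 0.658, 7.88 ± 1.83 and 6.67 ± 0.314 h (mean ± SD, n = 3). Apoe gave 7.06 ± 0.985, 10.4 ± 6.12 and 6.71 ± 0.759 h, the second mean resting on 9.17, 4.92 and 17.0 h. Pdgfra gave 2.74 ± 0.964, 3.50 ± 2.3 and 3.35 ± 1.32 h. Its rate at 0 h rested on 7 to 13 converted T positions per library at E14.5, with exact binomial 95% intervals as wide as 0.370% to 1.88% in pool C. These intervals cover counting error only, and T positions of the same read are not independent.

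Half-lives were compared between stages after z-scoring within each pool. A difference is therefore in standard deviations of all 9505 transcripts, and describes distance from their mean, not hours or rank. None of the 10 genes was called from E11.5 to E14.5 in limma, though 1 had an unadjusted p below 0.05, when 0.200% of transcripts were called. From E14.5 to E16.5, Tnc rose by 1.27 ± 0.12 and Olig1 by 0.54 ± 0.09 (limma, adjusted p = 0.0133 and 0.0471), 2 of 10 when 0.884% of transcripts were called and 0.684% were higher. From E11.5 to E16.5, Tnc (1.29 ± 0.12), Olig2 (0.55 ± 0.10) and Nfix (0.51 ± 0.10) rose (adjusted p = 0.00596, 0.0261 and 0.03), 3 of 10 when 4.70% were called and 2.99% were higher. The other differences did not pass the test and some had wide 95% intervals, that of Apoe from E14.5 to E16.5 reaching from -2.98 to 1.73. In hours without scaling, none of these rises was called, Nfix became -0.06 h, and Nfib was called lower in the step from E14.5 to E16.5 (-1.10 h, adjusted p = 0.0254). The call for Olig1 was lost without any one pool of either stage (adjusted p from 0.105 to 0.145), and that for Tnc from E14.5 to E16.5 without any one pool but E16.5 pool C (0.0504 to 0.0647). From E11.5 to E16.5 the call for Olig2 was lost without any one pool (0.0509 to 0.0965) and that for Nfix without any one but E11.5 pool A (0.0581 to 0.12).

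The last question was whether the levels stayed constant over the chase, as a half-life read from rates alone takes no account of new RNA. For several glial lineage genes they did not. The fitted differences of all 7 were above 0 at all 3 stages, whereas those of the NFI factors lay between -0.36 and 0.09 on the log2 scale. The differences of Sparcl1 at E11.5 and E14.5 and of Tnc at E14.5 did not pass the test (edgeR, adjusted p = 0.214, 0.108 and 0.312). In CPM at E11.5, Sparcl1 was lower at 12 h in pools B (24 and then 22.8) and C (20.4 and then 19.6). Tnc was lower in pool C (163 and then 152). The share of all genes above 0 at every stage was not counted. Called higher were Pdgfra and Aldh1l1 at E11.5, when 3.97% of 17904 genes were called and 1.42% were higher, Olig1, Pdgfra and Apoe at E14.5, when 2.28% of 17956 genes were called and 0.691% were higher, and Olig1 at E16.5, when 3.03% of 18008 genes were called and 0.750% were higher. No member was called lower.

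**Figure D4:**
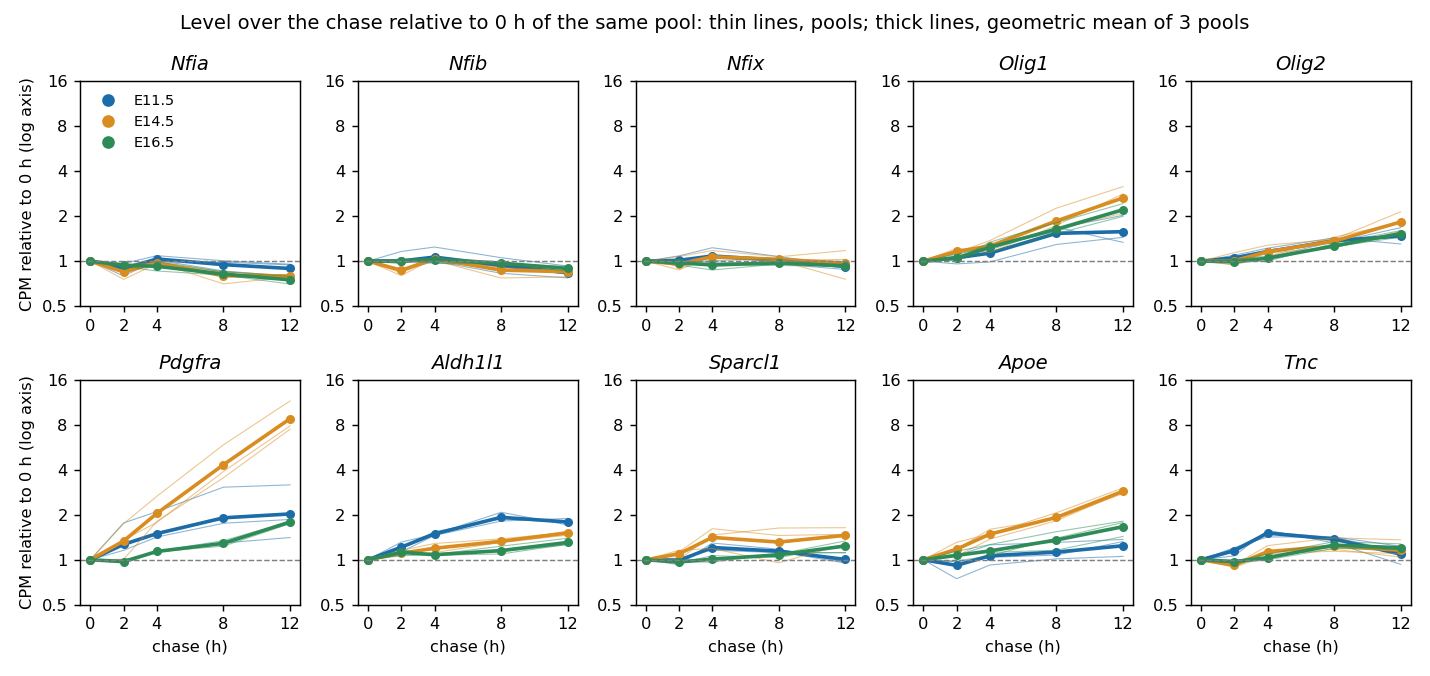
Level of each gene over 12 h of chase relative to 0 h of the same pool (log axis), by stage. Thin lines are the 3 pools and thick lines with points their geometric mean. Pdgfra at E14.5 climbs at each sampling time, Olig1, Olig2 and Apoe climb more gently at all 3 stages, and the NFI factors stay near or below 1.

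Pdgfra at E14.5 was the extreme case. Its 3 pools rose from 1.17, 1.68 and 1.42 CPM at 0 h to 3.11, 2.99 and 2.56 at 4 h, 6.87, 6.54 and 5.02 at 8 h and 13.5, 13.2 and 10.6 at 12 h. The log2 fold change was 3.27 ± 0.21 (edgeR, adjusted p = 1.7e-07), and the E14.5 level at 12 h approached the 13.9, 17.2 and 11.1 CPM reached at E11.5. In a fit of the interaction, chosen after the data were seen, the change at E14.5 exceeded that at E11.5 (1.14 ± 0.19) by 2.10 ± 0.29 (adjusted p = 2.7e-04), and the change at E16.5 (0.86 ± 0.25) differed from that at E14.5 by -2.39 ± 0.29 (adjusted p = 9.3e-04). Pdgfra was the one member called in each, when 1.42% and 0.0987% of 17224 genes were, and none was between E16.5 and E11.5 (1.75% of genes; 2 members with an unadjusted p below 0.05). The first pair of comparisons shares the E14.5 libraries. The interaction fit did not include the pool as a block, although each pool gave both a 0 h and a 12 h library. It was run in no alternative setting.

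Olig1 rose from 189, 296 and 161 CPM to 533, 619 and 507 at E14.5 and from 173, 166 and 153 to 345, 369 and 371 at E16.5. The groups did not overlap at either stage, and the log2 fold changes were 1.37 ± 0.26 and 1.16 ± 0.06 (adjusted p = 0.002 and 9.1e-09). At E11.5 the change was 0.86 ± 0.12, short of the fold threshold. Olig2 differed by 0.75 ± 0.19, 0.86 ± 0.18 and 0.63 ± 0.07 at the 3 stages (adjusted p = 0.00941, 0.00431 and 8.2e-06), none past that threshold. Apoe went from 9.4, 10.2 and 12.5 to 28.4, 28.9 and 34.7 CPM at E14.5 (1.51 ± 0.15, adjusted p = 1.4e-05). Its differences at E11.5 (0.52 ± 0.09) and E16.5 (0.75 ± 0.10) stayed below the threshold. The differences of Tnc lay between 0.21 and 0.32.

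Nfia differed by 0.03 ± 0.07, -0.32 ± 0.10 and -0.36 ± 0.07 at the 3 stages in turn, Nfib by -0.06, -0.21 and -0.12, and Nfix by 0.09, -0.03 and -0.06. None of these 9 values passed the fold threshold.

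At E11.5 both calls were lost without pool B, with 0.83 for Pdgfra and 1.00 for Aldh1l1 (adjusted p = 0.017 and 0.16), and at E14.5 the call for Olig1 was lost without pool A (1.31, adjusted p = 0.0553). In the E11.5 libraries at 12 h, the ribosomal repeat gene Gm42418 took 3.38%, 4.05% and 8.16% of the reads in the table, against at most 2.29% in any other library. Markers of other cell types moved over the chase too. Those of the ganglionic eminences and interneurons went from a sum of 41.6 to 46.9 CPM to one of 70.4 to 77.7 at E11.5, where 4 of 7 tested rose (median log2 difference 1.07), and from 51.5 to 55.3 CPM to 59.5 to 84.5 at E14.5, where 2 of 8 rose (0.47). At E16.5 the sum was 274 to 282 CPM at 0 h and 244 to 255 at 12 h (median difference -0.19). Microglia also make Apoe, and 5 of 9 of their tested markers fell at E11.5 (sums of 10.6 to 15.6 and then 4.78 to 6.12 CPM). At E14.5, 1 of 11 rose and the sums overlapped (14.7 to 18.6 and then 13.9 to 19.9 CPM). Of 8 mural and fibroblast markers 1 fell at E11.5 (480 to 731 and then 364 to 566 CPM) and 1 at E14.5 (19.1 to 23.4 and then 16.3 to 22.3 CPM). The part of these cells in the changes of the 10 genes was not tested.

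Other genes of the oligodendrocyte lineage changed in both directions over the chase. At E14.5, 7 of 17 tested rose over the chase and 1 fell, with a median change of 0.62 beside 0.00 over all genes. Sox10 went from 0.0771 to 2.02 CPM and Gpr17 from 0.101 to 0.649 (edgeR, adjusted p = 3.1e-05 and 0.00891), and the one that fell, Nkx2-2, from 0.421 to 0.124 CPM. At E11.5, 1 of 16 rose, the proteoglycan gene Cspg4 (7.11 to 24.1 CPM), and 1 fell, Matn4. At E16.5, 2 of 17 rose, Cnp (15.1 to 33.2 CPM) and Sox10 (2.68 to 5.83 CPM), and 0 fell. Of the astrocyte lineage genes 2 of 16 rose over the chase at E11.5 (Slc1a3 and Aqp4), and Hepacam rose at E14.5. Of 22 switch regulators edgeR called 0 at each stage, with 8, 11 and 12 at an unadjusted p below 0.05.

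A rising level changes what the conversion rate measures, because unlabelled new RNA lowers the share of converted positions. Converted T positions were therefore also scaled to the library's covered T positions. For the NFI factors both measures gave like values: Nfib kept 17.2% ± 2.02 of its rate and 16.1% ± 2.4 of its converted positions after 12 h at E11.5 (mean ± SD, n = 3), and 9.03% ± 0.388 and 8.05% ± 0.607 at E16.5. For Olig1 at E14.5 the rate fell to 15% ± 1.38 of its start but converted positions to 40.4% ± 11.2, and at E16.5 to 15.6% ± 1.18 and 33.6% ± 0.671. For Pdgfra at E14.5 the rate fell to 17.7% ± 4.82 while converted positions rose to 167% ± 24.3, with 177%, 139% and 185% in the 3 pools.

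**Figure D5:**
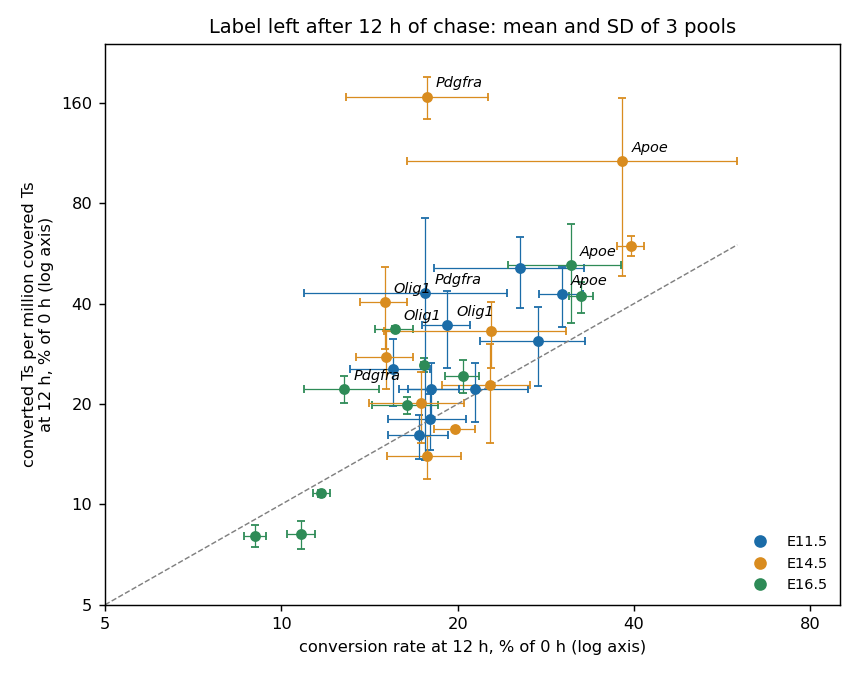
Label left after 12 h of chase for the 10 genes at 3 stages (30 points): the conversion rate and the converted T positions relative to all covered T positions of the library, each as a percentage of 0 h (log axes, mean and SD of 3 pools). On the dashed line both are equal. The NFI factors lie near the line, and Pdgfra and Apoe at E14.5 lie farthest above it, at 167% and 107%. The Apoe mean rests on pools A, B and C at 89.6%, 59.1% and 172%, so converted positions rose in pool C alone.

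Some of the remaining conversions may be background, which was not measured. As an assumed value the 1st percentile of the 12 h rate in transcripts with over 10000 covered T positions was taken, 0.110% to 0.153%, which can itself hold remaining label, and the 12 h rates of Pdgfra at E14.5 were 0.231%, 0.260% and 0.211%. After this value was subtracted, its converted positions stood at 79.9%, 74.8% and 65.7% of their start, and those of Olig1 at E14.5 at 9.17% ± 1.91. Half-lives of Pdgfra at E14.5 read from the rate therefore rest on a level that rose throughout the measurement. When half-lives were fitted to converted positions in place of rates, Pdgfra, Aldh1l1, Sparcl1 and Apoe did not have a usable half-life in every pool, and of the 6 other genes limma called none between any stages.

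At E11.5 the median half-life of the 3 NFI genes was 3.35 to 4.07 h in the 3 pools and that of the 7 lineage genes 4.21 to 4.36 h. One stage on, it was 4.14 to 4.41 h against 4.72 to 6.16 h, and in the last 3.04 to 3.32 h against 5.70 to 5.98 h. The lineage median at E16.5 was the value of Tnc in each pool, and the 6.16 h at E14.5 was that of Pdgfra in pool C. Olig2 lay below all 3 NFI genes in every pool of each stage, and Olig1 at E16.5 lay within their range. Relative conversion rates had medians of -0.07 to -0.01 and 0.05 to 0.17 at E11.5, then of -0.04 to -0.02 and 0.03 to 0.12, and finally of -0.02 to 0.02 and -0.82 to -0.74, for NFI and lineage genes in turn. The ranges of these medians did not overlap at any stage, but the lineage median was higher in relative rate at the first 2 stages and lower at E16.5. Single genes did not all follow the medians. Aldh1l1 at E14.5 (mean relative rate -0.21) lay below the means of the NFI factors, and Sparcl1 at E16.5 (-0.04) lay close to them. With so few genes in each set no test was made, and the lineage genes ranged from 1.46 to 17.0 h among themselves.

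The genes whose level followed each member most closely over the 45 libraries are given by name. For Nfix they were Rbfox1, Sst and Lhx6 (Pearson's r of log2(CPM + 1) = 0.994, 0.994 and 0.993), the latter pair being genes of cortical interneurons. They were Zfp317, Spty2d1 and Neurog2 for Nfia, Eps8, Apobec1 and Adcy8 for Nfib, Zcchc24, Chst7 and Zfp469 for Olig1, Inhbb, Kif21b and Ltbp3 for Olig2, and Kif21b, Ptprd and Plxna2 for Tnc. They were Bcl7c, Tppp and Satb1 for Pdgfra, Ina, Nrep and Ablim3 for Aldh1l1, Cntn1, Pcdh7 and March8 for Sparcl1, and Cnp, Mindy1 and Chst11 for Apoe, whose best match had r = 0.806. Within the set, Olig2 went with Tnc (0.960) and Olig1 (0.946), and Nfia against Pdgfra (-0.824). These values describe libraries that fall into 3 stages and share their pools, so the points are not independent samples, and 11506 genes with a mean of at least 5 CPM were searched.

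On GRCm38, Nfia (chr4:97772734-98118874), Nfib (chr4:82290173-82705750) and Tnc (chr4:63959785-64047015) share a chromosome, as do Olig2 (chr16:91225457-91228677) and Olig1 (chr16:91269772-91271933), which are neighbours. Nfix lies at chr8:84699876-84800344, Pdgfra at chr5:75152292-75198215, Sparcl1 at chr5:104079111-104113733, Aldh1l1 at chr6:90486427-90600203 and Apoe at chr7:19696109-19699188. All are protein-coding genes, and values were summed over their exons. Other annotated genes overlap 8 of them, all but Olig2 and Apoe, on the same strand at Nfib (Gm11267), Pdgfra (Mir7025) and Aldh1l1 (Gm45901 and Gm44236). Use of strand in the counting is not given in the sources used here, so reads from any exon sequence that such a gene shares cannot be told apart from those of the member. The overlaps are of whole gene spans, and Gm11267 is annotated as intronic.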

How the data were processed

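The authors processed reads with SlamDunk on mm10 and summed covered and converted T positions over the exons of each gene in a GENCODE annotation, in 9 deposited tables of 3 stages by 3 replicates. Covered T positions are deposited counts, to which 1 read contributes several. Deposited conversion rates are a fraction of covered positions. Deposited expression is in CPM, and 100% of its values were whole multiples of 1 read within 0.01 reads. The edgeR test on those whole reads called 2003, 1648 and 3942 genes between stages (E14.5 against E11.5, E16.5 against E14.5, E16.5 against E11.5) and 340, 189 and 161 over the chase. The authors' half-lives and R2 were deposited too, and 99.99% of 117534 refitted half-lives lay within 1% of theirs.

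Half-lives were refitted as exp(-kx) on rates scaled to 1 at 0 h and kept with more than 500 covered Ts at all times, a half-life under 24 h and R2 over 0.6 in all 3 replicates. Levels were tested with edgeR 4.0.16 (quasi-likelihood, TMM, more than 10 counts in all libraries) on covered-T counts, half-lives (z-scores) and relative rates with limma 3.58.1, and DESeq2 1.42.0 served as an alternative, all with Benjamini-Hochberg adjustment, in R 4.3.3 and Python 3.11.15. The edgeR and limma tests were first run on simulated data, for part of the comparisons only. These were levels from E11.5 to E14.5, levels over the chase at E16.5, and half-lives and relative rates from E11.5 to E16.5. The other steps were not simulated.

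Replicate letters mark 1 pool within a stage, where deviations at 0 h and 12 h correlated for every same-letter pair (r from 0.150 to 0.474), and different embryos across stages (r from -0.104 to 0.124). The members and the gene lists were chosen with earlier results of these data known. Genes beyond the 10 were named by rule. These were the 2 largest called rises and falls of each list between successive stages and over the chase. The others were the leading marker of other cell types and the 3 genes closest in level over all libraries. Lists not otherwise described were erythroid markers (summed CPM 1453 to 3209 at E11.5, at most 75.9 later at 0 h). Gene models and 3′ UTRs (isoform with the longest coding sequence) came from GENCODE M21 on GRCm38. A gene of the astrocyte lineage list is not reported here, so the counts of that list over the chase at E14.5 and E16.5 were left out. Protein sequences were not used here.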

Additional observations from a re-analysis of the deposited data

Results flagged for a closer look

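The change over 12 h of chase differed between stages for 3 genes in the interaction test of edgeR (adjusted p under 0.05, without the fold threshold). The share of all genes that passed this looser rule was not counted, so the number cannot be judged. With the fold threshold only Pdgfra was called, in the 2 comparisons with E14.5, when 1.42% and 0.0987% of 17224 genes were. For Pdgfra the change at E14.5 exceeded that at E11.5 by 2.10 on the log2 scale (adjusted p = 2.7e-04), and that at E16.5 was lower than at E14.5 by -2.39 (adjusted p = 9.3e-04), with the level higher at 12 h in 3 of 3 pools at each stage. For Apoe the corresponding differences were 0.95 (adjusted p = 8.0e-04) and -0.73 (adjusted p = 0.0352), again with 3 of 3 pools higher at 12 h at each stage. Nfia differed by -0.38 between E14.5 and E11.5 (adjusted p = 0.0218) and by -0.40 between E16.5 and E11.5 (adjusted p = 0.0126). In CPM, however, Nfia was lower at 12 h in 3 of 3 pools of every stage, the youngest included. Its mean CPM at 12 h was 0.894 of the 0 h mean in the E11.5 cultures, 0.795 in the next and 0.751 in the oldest. The fitted change at E11.5 was 0.03, so the stages lay closer together in CPM than in the fit. Gm42418 took its largest shares of reads in the E11.5 libraries at 12 h, and its part here was not tested. Groups of 3 pools are too small for a test of single outlying samples.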

How the results depend on the processing

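Over the alternatives, 1091 of 1233 values for single genes kept their direction and their side of the threshold, 81 lost the call, 13 gained one, 40 whose adjusted p was at or above the threshold in both settings changed sign, and 8 changed sign with an adjusted p below it in at least 1 of the 2. Those 8 were, with libraries at 12 h in place of 0 h, Apoe (0.27 from E11.5 to E14.5 and -0.19 from E14.5 to E16.5) and Nfia (-0.33 from E11.5 to E16.5), with 8 h in place of 12 h of chase, Nfib at E16.5 (0.01), in hours without scaling, Nfix (-0.06), and without centring of rates, Nfia (0.61) and Sparcl1 (0.68 and, from E11.5, 0.55). The cause was not tested. With 8 h in place of 12 h, a choice made after seeing the data, 0, 1 and 0 members were called over the chase at the 3 stages in turn, beside 2, 3 and 1, and with 1 pool left out 0 to 2 at E11.5 and 2 to 3 at E14.5. Leaving out a pool gave 4 to 5 members for relative rates in both comparisons with E16.5, beside 6. For relative half-life from E14.5 to E16.5, 1 member was called in hours, 1 after subtraction of the assumed background and 0 from converted positions (6 members could be fitted), and 0 to 1 with a pool left out. From E11.5 to E16.5 it was 0 in hours, 0 from converted positions and 1 to 2 with a pool left out. After subtraction of the assumed background, Olig2 lost its call in that comparison (0.28, limma, adjusted p = 0.108).

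With the replicate letter as a block, 0 half-lives of members were called from E14.5 to E16.5 and 1 from E11.5 to E16.5. Letters pair no embryos across stages, so this fit spends degrees of freedom on a number alone. With the pool as a block in the chase, where letters do pair, 2, 3 and 1 members were called at the 3 stages, the same counts as without it. Genes called over all tested varied by more than 1.5 times for the chase (311 to 815, 128 to 550 and 161 to 673 by stage), for half-lives (0 to 93, 0 to 3620 and 94 to 1222) and for relative rates (0 to 45, 1242 to 10340 and 1272 to 9863), beside 711, 409 and 545 for the chase, 19, 84 and 447 for half-lives, and 19, 2134 and 2135 for relative rates. In hours, 0.359% of the half-life calls from E14.5 to E16.5 were higher, beside 77.4% of the z-scored ones. Depth limited Pdgfra at E14.5, with 7 to 13 converted positions per library at 0 h, and 3 pools a stage limit all tests.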
